A study of Drosophila melanogaster with 2 samples.

Results

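Of 30000 candidate binding regions of the fly Fos protein kay, 5260 lay between protein-coding genes, away from their promoters, and carried no AP-1 site at their summit. These intergenic members were chosen by position and sequence. The summit, the base of highest signal, had to lie outside every protein-coding gene and over 500 bp from every protein-coding transcription start site (TSS). No copy of TGACTCA or its reverse complement TGAGTCA, the 7-bp AP-1 site, was allowed wholly inside the 50 bp on each side of the summit. The signal of a region did not enter the choice. The regions formed 4492 separate clusters, since some overlap.

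The data are ChIP-seq from whole Drosophila melanogaster embryos aged 0 to 24 hours, with males and females pooled. The transgenic line stably expressed kay with GFP at its C-terminal end, and the tagged protein was precipitated with an antibody against GFP from chromatin sonicated to 200 to 800 bp. There was 1 group of 2 biological replicates, numbered 2 and 4, and no second genotype or treatment. Cells of every embryonic tissue were mixed, so a region bound weakly in many cells and one bound strongly in a few cannot be told apart. The candidate list pools both replicates and holds peaks and background. A further, shorter list is the set that passed the irreproducible discovery rate (IDR) procedure, which compares replicates. It holds exactly the candidates of strongest signal down to a limit, so the share of regions in the IDR list is used below as a measure of strength. The regions are not replicates, and each p-value compares sets of regions within these 2 libraries. The lists hold no read counts, so the depth is unknown, and 95% intervals of shares (Clopper-Pearson) cover counting error alone.

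Fos proteins bind DNA as a pair with Jun or with another basic leucine zipper protein, and the pair reads the AP-1 site. In the fly embryo kay acts below the JNK kinase in dorsal closure, when the epidermal sheets meet at the dorsal midline, and in epidermal wound repair. Regions between genes can hold enhancers, which act on promoters at a distance, insulators bound by proteins such as CTCF and Su(Hw), and promoters of noncoding RNAs.

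The sequences that carry the clearest motif difference are those of IDR members with a CTCF motif, AGGNGGCGC, searched on both strands. Each line gives the summit base and 50 bases on each side, read from the forward strand of the Release 6 (dm6) genome of RefSeq, with the CTCF motif in capitals. The positions are chrX:18239474-18239574 for the gap between CG33639 and upd2, chr3R:14391380-14391480 for soti to cv-c, chrX:18704054-18704154 for Cyp18a1 to CCKLR-17D1, chrX:10832557-10832657 for Imp to sbr, chr3R:16005330-16005430 for srp to GATAe, chr3L:4239596-4239696 for ImpL2 to Sqor and chr2L:17784766-17784866 for CadN to CadN2. These are 7 of the 9 IDR members with the motif, and all 7 lie between protein-coding genes. The other two, of which one is the strongest of the 9, are described with the motif results without their sequence.
CG33639 to upd2: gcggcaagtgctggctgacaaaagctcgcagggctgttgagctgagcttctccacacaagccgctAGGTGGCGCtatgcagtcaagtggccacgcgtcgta
soti to cv-c: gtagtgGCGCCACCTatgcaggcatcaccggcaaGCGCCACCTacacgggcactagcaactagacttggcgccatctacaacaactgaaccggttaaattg
Cyp18a1 to CCKLR-17D1: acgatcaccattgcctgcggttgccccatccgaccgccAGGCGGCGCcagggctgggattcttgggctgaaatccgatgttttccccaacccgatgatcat
Imp to sbr: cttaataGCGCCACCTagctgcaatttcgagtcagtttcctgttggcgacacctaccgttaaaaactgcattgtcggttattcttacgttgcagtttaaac
srp to GATAe: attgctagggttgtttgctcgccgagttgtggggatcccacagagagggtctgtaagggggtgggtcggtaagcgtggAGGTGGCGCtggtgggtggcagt
ImpL2 to Sqor: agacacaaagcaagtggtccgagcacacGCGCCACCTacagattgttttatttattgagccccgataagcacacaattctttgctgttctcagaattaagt
CadN to CadN2: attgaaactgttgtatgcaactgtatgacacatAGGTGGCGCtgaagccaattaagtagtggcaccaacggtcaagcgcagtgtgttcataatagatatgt

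For contrast, the next windows come from strong members that held none of the 19 motifs searched, and from members beside genes of the EGFR and segmentation lists described further on. They span the same 50 bases on each side of the summit on the same strand and genome, and capitals mark any of the searched motifs. Their positions are chr2L:14024025-14024125 (NimC3 to hll), chr3R:16222423-16222523 (mtSSB to tara), chr2L:1638702-1638802 (RFeSP to chinmo), chr2L:3832461-3832561 (slp1 to slp2), chr2L:2180221-2180321 (aop to CG10874) and chr3L:3394698-3394798 (Ids to sty), all between protein-coding genes. The slp1 to slp2 window holds 2 copies of the M1BP motif GGTCACACT, the aop window 1 homeodomain core TAATTA, and the Ids to sty window 1 GAGA match, while the windows at hll, tara and chinmo show no capitals.
NimC3 to hll: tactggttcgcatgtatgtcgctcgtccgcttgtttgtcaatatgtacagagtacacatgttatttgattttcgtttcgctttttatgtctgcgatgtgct
mtSSB to tara: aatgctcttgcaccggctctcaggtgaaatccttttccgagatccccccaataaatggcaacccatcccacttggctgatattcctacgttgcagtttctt
RFeSP to chinmo: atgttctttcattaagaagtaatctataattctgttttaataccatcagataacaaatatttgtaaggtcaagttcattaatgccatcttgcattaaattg
slp1 to slp2: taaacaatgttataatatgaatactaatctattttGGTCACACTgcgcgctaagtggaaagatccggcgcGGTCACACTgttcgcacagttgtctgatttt
aop to CG10874: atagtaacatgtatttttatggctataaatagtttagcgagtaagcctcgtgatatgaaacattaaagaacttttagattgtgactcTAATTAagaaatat
Ids to sty: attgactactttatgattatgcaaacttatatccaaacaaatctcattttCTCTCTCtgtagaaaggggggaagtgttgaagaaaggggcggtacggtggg

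The intergenic members were weak as a class. Of the 5260, 459 were in the IDR list, a share of 8.73% (7.98 to 9.52%), against 12.9% of all 30000 candidates. Among promoter regions without an AP-1 site, those with a summit within 500 bp of a TSS, 2030 of 9003 (22.5%) were in the IDR list. The odds ratio of intergenic members over promoters was 0.328 (0.295 to 0.366), with an adjusted p of 1.18e-105 by Fisher's exact test, two-sided, over 3 comparisons. Distal intronic regions, in an intron and as far from a TSS, were closer, with 1137 of 12170 (9.34%) in the list. The odds ratio of intergenic over intronic regions was 0.928 (0.828 to 1.04; adjusted p = 0.198, Fisher's exact test), which did not pass. In the candidates of replicate 4 alone it was 0.816 and passed (adjusted p = 5.3e-04, Fisher's exact test).

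Regions in the same places that did hold an AP-1 site at the summit were stronger. Of the 5260 members without the site 8.73% were in the IDR list, against 18 of 105 regions with it (17.1%, 10.5 to 25.7%). The odds ratio of regions without over regions with the site was 0.462 (0.276 to 0.775; adjusted p = 0.00794, Fisher's exact test). With summits inside noncoding genes left out as well, the odds ratio was 0.545 and missed the threshold (adjusted p = 0.0545, Fisher's exact test). Next to the 50 bp limit, 9 of 38 members whose nearest site was centred 48 to 67 bp from the summit were in the IDR list, against 5 of 41 excluded regions with a site centred at 28 to 47 bp. At the 500 bp limit, 20 of 156 members with a TSS over 500 and up to 600 bp away were in the list, against 36 of 216 excluded regions over 400 and up to 500 bp away.

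AP-1 sites farther from the summit occurred in some members. A site lay elsewhere in the region for 36 of 459 IDR members (7.84%, 5.55 to 10.7%) and for 216 of the 4801 other members (4.50%, 3.93 to 5.12%). Over 50 and up to 150 bp from the summit there were 24.0 sites per 100 regions and kb in IDR members and 14.7 in the other members, and from there to 300 bp 16.0 in IDR members and 12.3 in the others. These densities are a description, with no test. The AP-1 sites of members among the strongest 15 are shown with 12 bases on each side and the site in capitals. On the forward strand they span chr2L:17451049-17451079 for the dl to CG5050 region and chr3R:4962742-4962772 for the Jhbp2 to Jhbp1 region. The site was centred 48 bp from the summit at dl and 58 bp at Jhbp2. The dl site thus lay partly inside the 50 bp limit, which excludes whole sites only.
dl to CG5050: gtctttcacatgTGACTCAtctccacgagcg
Jhbp2 to Jhbp1: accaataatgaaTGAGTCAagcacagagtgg

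Among the members, regions near a gene start were the stronger ones. Up to 2000 bp from a TSS 161 of 1536 (10.5%) were in the IDR list, against 298 of 3724 (8.0%) farther away. The odds ratio of near over far was 1.35 (1.10 to 1.65; p = 0.00438, Fisher's exact test, two-sided). In the candidates of replicate 2 alone the odds ratio was 1.21 and did not pass (p = 0.076, Fisher's exact test), and in those of replicate 4 alone it was 1.66. Counting members from over 1000 bp on gave 1.27 (p = 0.061, Fisher's exact test).

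Beyond 10 kb from a gene start intergenic regions were in the IDR list more often than intronic ones. The IDR share of intergenic members was 11.2% from 500 to 1000 bp, 9.96% from there to 2000 bp, 8.61% to 5000 bp, 6.88% to 10000 bp and 8.28% over 10000 bp. In distal introns the shares at the same distances were 13.5, 10.8, 8.54, 9.15 and 5.71%. Over 10000 bp from a TSS 103 of 1244 intergenic members were in the list, against 124 of 2173 intronic regions. That difference passed over the 5 distances tested, with an odds ratio of 1.49 (1.14 to 1.96; adjusted p = 0.0212, Fisher's exact test). In the candidates of replicate 4 alone it was 1.20 and did not pass (adjusted p = 0.268, Fisher's exact test). With the stronger 50% of the IDR list it was 1.5 and did not pass either (adjusted p = 0.155, Fisher's exact test). None of the nearer distances passed, and their odds ratios lay between 0.734 and 1.01. Whether the difference beyond 10 kb differs from that at shorter distances was not tested.

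**Figure D1:**
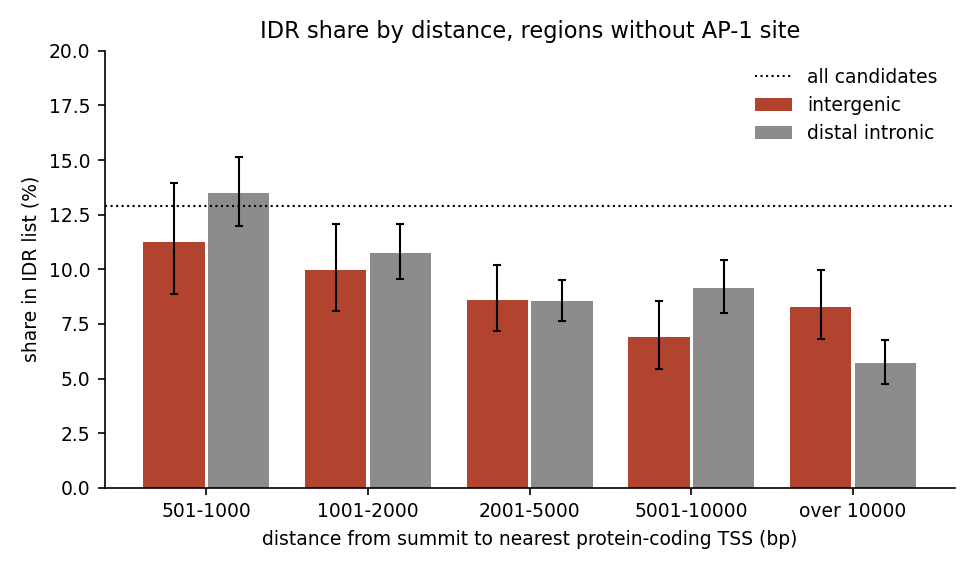
Share of regions without an AP-1 site in the IDR list, in percent, by distance from the summit to the nearest protein-coding TSS, for intergenic members (red) and distal intronic regions (grey). Bars show shares, error bars exact 95% intervals, and the dotted line the 12.9% of all candidates; the red bar is 8.28% and the grey bar 5.71% beyond 10000 bp.

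The plot of shares by distance shows the intronic bars falling to their lowest value in the last bin, while the lowest intergenic bar is the one before it. The distant members include strong regions. The 3 strongest over 10 kb from a TSS had pooled signals of 1045.3, 542.8 and 536.7, beside a median of 132.3 over the 459 IDR members, whose range was 93.6 to 1891.5. The other 4801 members ran between 23.3 and 93.2, with a median of 33.6. The signal is the value given by the authors' peak caller and describes regions within 1 list.

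The strongest member lay in the short gap between the 3′ ends of l(2)k09913 and Fib, the gene of the nucleolar methyltransferase fibrillarin. Its pooled signal of 1891.5 ranked 2 of 30000 candidates, and it ranked 3 in replicate 2 (signal 1038.3) and 2 in replicate 4 (signal 864.0). Its summit, in chr2R:23072133-23072792, was 72 bp from the annotated start of tRNA:Ser-TGA-2-1, a serine tRNA gene, and 2124 bp from the nearest protein-coding TSS. Both replicates therefore placed it near the top of their lists.

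Polycomb genes flanked the second and the seventh strongest members. Su(z)2 and Psc encode related subunits of Polycomb repressive complex PRC1. The region between Su(z)2 and CG13323 had a pooled signal of 1045.3 and ranked 20 in replicate 2 and 18 in replicate 4, with 11892 bp to the nearest protein-coding TSS. The region between Psc and CG33798 had a pooled signal of 612.3, ranks of 86 and 89 in replicates 2 and 4, and a summit 201 bp from the start of lncRNA:CR44339. They lie in chr2R:13035123-13035553 and chr2R:12985034-12985396. The summit of the first was 49997 bp from the start of lncRNA:CR44339, and the second region covers that start.

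The gap upstream of tara, which encodes a nuclear cell cycle protein that interacts with Polycomb and trithorax group genes, held the members placed 4 and 15 by strength. Their summits were 3178 and 1082 bp from the nearest tara TSS, with pooled signals of 709.8 and 466.2. The first ranked 65 in replicate 2 and 55 in replicate 4, and the second 198 and 157. The 5 IDR members of the gap, in 4 clusters, all lay within 3807 bp of that TSS, and the 19 other members of the gap did not reach the list.

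The gap upstream of chinmo, the gene of a BTB zinc finger protein that sets temporal identity in neurons, held the members placed 10 and 11. Their summits lay 12506 and 18401 bp from the nearest chinmo TSS, with pooled signals of 542.8 and 536.7. They ranked 124 and 106 in replicate 2 and 93 and 139 in replicate 4. In the whole gap of 37097 bp 9 of 24 members were in the IDR list, in 8 clusters, and they were spread from 1784 to 26359 bp from the TSS. RFeSP, which encodes an iron-sulfur subunit of respiratory complex III, starts at the other end.

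The rest of the strongest 15 lay beside genes of several kinds. The one between NimC3, a Nimrod family gene, and hll had a pooled signal of 712.9 and ranked 40 and 84 in replicates 2 and 4. Its summit was 24 bp from the start of lncRNA:CR31840, and a second entry of the list with the same start and end but another summit covers the same sequence. The region between CG4004 and Paics, a purine synthesis gene, had a signal of 687.5 and ranked 72 and 71. The one between blw (an ATP synthase subunit) and CycB (cyclin B) had 619.6 and ranked 96 and 66, and the one between COX7AL2 and CG31668 had 571.4 and ranked 92 and 123. That between Cyt-c1L and eEF1gamma, a translation elongation factor gene, had 553.1, ranks of 109 and 102, and a summit 134 bp from the start of lncRNA:CR31044.

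The final members of the 15 stood closer to a gene start. The one upstream of dl, which encodes the NF-kappaB protein Dorsal, had a pooled signal of 508.3, ranks of 117 and 164, and a summit 652 bp from the dl TSS. The one between Atg13, an autophagy gene, and stck, which encodes the integrin adhesion protein PINCH, had 489.1 and ranks of 121 and 180. The one between Jhbp2 and Jhbp1 had 471.0 and ranks of 236 and 116. Each of the 15 thus ranked 236 or better in replicate 2 and 180 or better in replicate 4. Of the 15, 11 were over 2000 bp from a TSS, 9 lay in gaps where both genes start, 4 where both end and 2 where 1 does, and 4 had a noncoding RNA start within 500 bp.

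Over all IDR members the replicates agreed in part. Of the 459 IDR members, 458 overlapped a candidate of each replicate, 299 (65.1%) one of the top candidates of both, 85 of replicate 2 alone, 60 of replicate 4 alone and 15 of neither. The top candidates of a replicate are its strongest by signal, as many as the IDR list holds. The ranks in the replicates had a Spearman correlation of 0.571 over the 458 regions, a description of regions that were all chosen by their pooled strength. Of the 4801 other members, 19 were among the top candidates of both replicates. Applied to each replicate's own 30000 candidates, the membership rule gave 455 of 5183 members (8.78%) among the top ones in replicate 2 and 436 of 5556 (7.85%) in replicate 4. The replicate lists were scaled separately, so only ranks are compared.

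**Figure D2:**
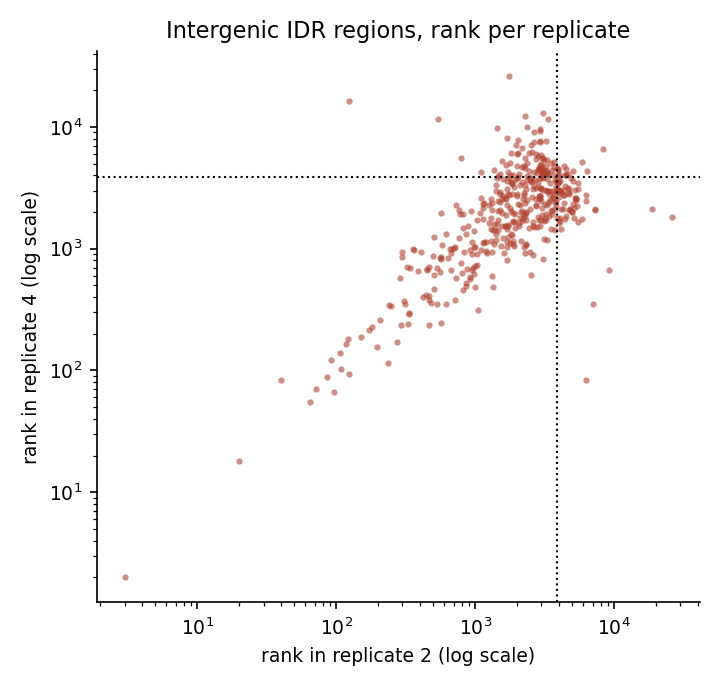
Rank of each intergenic IDR member in the candidates of replicate 2 (horizontal) and replicate 4 (vertical), both on log scales, for the 458 with a candidate in both. Each point is 1 region and the dotted lines mark the rank equal to the size of the IDR list; 299 regions lie to the left of and below both lines.

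The plot of ranks by replicate shows the strongest regions in a narrow band and a wide cloud around the dotted lines, with a few regions that ranked high in 1 replicate and far down in the other. One of these, 12307 bp from the chinmo TSS, ranked 124 in replicate 2 through a candidate that its stronger neighbour matched too, and 16452 in replicate 4.

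Noncoding RNA starts were more frequent near the strong members. An annotated start of a gene that is not protein-coding lay within 500 bp of 63 of 459 IDR summits (13.7%, 10.7 to 17.2%), against 421 of 4801 summits of other members (8.77%, 7.98 to 9.60%). The odds ratio was 1.66 (1.25 to 2.20; p = 9.17e-04, Fisher's exact test, two-sided). It passed in each replicate's own candidates, at 2.08 in replicate 2 and 1.73 in replicate 4. The membership rule counts protein-coding genes and TSSs alone, so these regions lie away from protein-coding promoters but not from all promoters. Of all members, 591 had their summit inside a noncoding gene, and 70 of these (11.8%) were in the IDR list. Outside all annotated genes 389 of 4669 (8.33%) were, a difference that was not tested. Among the strongest 15, the summits between NimC3 and hll, CG4004 and Paics, and dl and CG5050 lay inside noncoding genes.

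Long noncoding RNAs supplied most of these starts. Of 342 members whose nearest start within 500 bp was of an lncRNA, 47 (13.7%) were in the IDR list, against 396 of 4776 members (8.29%) with no start that near. The other classes were small, with 4 of 53 members at tRNA genes in the list, 4 of 21 at antisense RNAs, 3 of 10 at the spliceosomal snRNA genes, 2 of 17 at snoRNAs, which guide RNA modification, 2 of 14 at microRNAs and 0 of 18 at pseudogenes. The microRNAs were mir-275, with a summit 481 bp away at rank 2299, and mir-314, with one 172 bp away at rank 3080. The snRNA genes were U5:63BC, U6:96Ac and U1:95Ca, at ranks 2639, 3164 and 3493. These microRNA and snRNA loci were named after their values were seen.

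The stress-induced nuclear RNA lncRNA:Hsromega had overlapping IDR members, in the same cluster, with summits 204 and 64 bp from its start. They ranked 1229 and 2791 in the pooled list. The first ranked 537 in replicate 2 and 11593 in replicate 4, and the second 1777 and 5051, so the ranks were higher in replicate 2 for both. This locus was also picked after its values were seen. Among members over 2000 bp from a protein-coding TSS, 46 of 313 (14.7%) with a noncoding start were in the IDR list, against 252 of 3411 (7.39%) without one. Up to 2000 bp away the shares were 9.94% of 171 with and 10.5% of 1365 without, and the difference between these distances was not tested.

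Gaps where both flanking genes start and gaps where both end did not differ detectably. In gaps where both flanking genes start, 152 of 1609 members (9.45%) were in the IDR list, against 100 of 1047 (9.55%) where both genes end. The odds ratio was 0.988 (0.758 to 1.29; p = 0.946, Fisher's exact test), and the interval allows either kind to be the higher one. Where 1 gene starts and 1 ends, 207 of 2593 (7.98%) were in the list, a share that was not tested against the others. Over 2000 bp from a TSS the shares were 8.61% where both start, 9.50% where both end and 6.94% where 1 starts and 1 ends. Nearer they were 10.9% where both start, 9.86% where both end and 10.4% where 1 starts and 1 ends.

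Some gaps held several IDR members. Apart from 11 members at the ends of arms, the 5260 members fell into 1691 gaps between protein-coding genes. Of these gaps 304 held an IDR member, 81 held 2 or more and 14 held 4 or more. Those 14 gaps held 86 of the 459 IDR members, and they were singled out after their values were seen. The gap between hry, the pair-rule gene hairy, and SrpRbeta held 5 of 28. That between noc, a zinc finger gene, and CG33648 held 4 of 21. Over all members the share was 8.73%. Other gaps with many members had lower shares, such as 2 of 62 between Or67d and CG12362 and 3 of 44 between plh and corto. Whether IDR members gather beyond what the number of members per gap gives was not tested.

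Some compact gaps had 50% or more of their members in the list. Between NimC3 and hll 5 of 6 members were in the list, in 3 clusters, between aop and CG10874 4 of 5, between COX7AL2 and CG31668 4 of 6, and between CG4004 and Paics 4 of 8. The long gaps between NijA and CG43245 (75047 bp), CG44362 and CG7560, and hng3 and CG13898 held 7 each, of 40, 25 and 31 members.

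**Figure D3:**
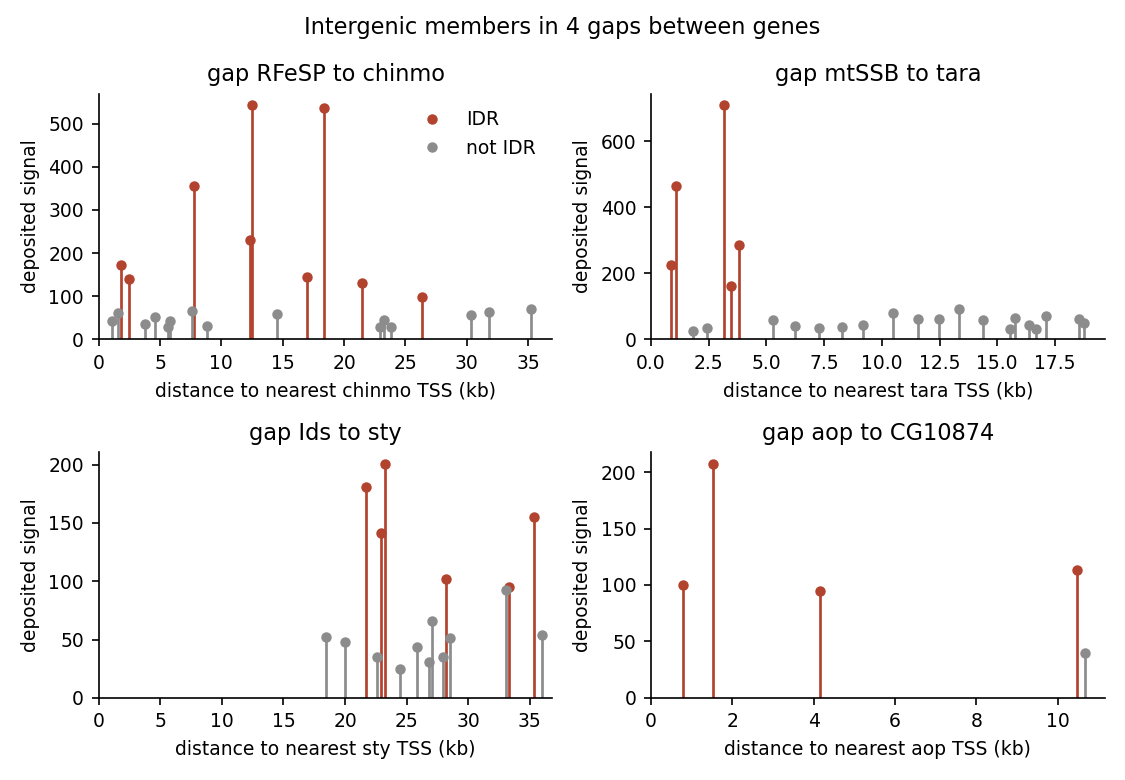
Deposited pooled signal of each member in 4 gaps between genes, by distance from the summit to the nearest TSS of chinmo, tara, sty or aop in kb, with IDR members in red and other members in grey. The red points spread over 1784 to 26359 bp at chinmo, stay within 3807 bp at tara and lie over 21 kb from the sty TSS, with 6 of 17 members in red there.

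The plot of signals in 4 gaps shows different arrangements. At tara the strong regions stand within 3807 bp of the TSS, with weak ones at 1825 and 2406 bp among them. More weak ones lie beyond. At chinmo strong and weak regions are mixed. Beyond the 3′ end of sty the strong ones lie unevenly, 21691 to 35302 bp from its TSS, with weak ones among them.

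Of the 8 lists of developmental genes, that of epidermal growth factor receptor (EGFR) signalling had the highest share of members in the IDR list. EGFR signalling patterns the embryonic epidermis and many other tissues through the Ras and MAP kinase cascade. Of the 31 members in gaps next to a gene of the 8-gene EGFR list, 12 were in the IDR list (38.7%, 21.9 to 57.8%), beside 8.73% of all members. Their median pooled rank was 9143, beside 16708 over all members. The 31 members came from 5 genes and 26 clusters, so they are not independent, and no test was made. With the stronger 50% of the IDR list, which kept 197 of the 5260 members, the share was 16.1%. In the candidates of replicate 2 alone it was 25.7% and of replicate 4 alone 26.7%.

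Few members lay beside the ligand genes of the pathway, too few to set their IDR share against the 8.73% of all members. Beside vn, which encodes the neuregulin-like ligand Vein, 1 of 7 members was in the list, at rank 1884 with a signal of 143.2, and its ranks were 1632 in replicate 2 and 2613 in replicate 4. The single member beside spi, the gene of the main ligand Spitz, ranked 9716 and was not in the list. Egfr itself, rho and aos, of which the last encodes the secreted inhibitor Argos, had no member next to them.

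The transcription factors and the inhibitor Sprouty accounted for most of the 12. Beside aop, which encodes the Ets repressor Yan, 4 of 5 members were in the list, with signals of 99.7, 207.5, 94.7 and 112.9 at 779, 1517, 4150 and 10468 bp from its TSS. The strongest ranked 1024 in replicate 2 and 740 in replicate 4. Beside pnt, which encodes the Ets activator Pointed, the single member was in the list at rank 2931, but its ranks in replicates 2 and 4 were 2046 and 7734. Next to sty, which encodes Sprouty, an intracellular inhibitor of receptor tyrosine kinase signalling, 6 of 17 members were in the list. They lie in the gap beyond the 3′ ends of both sty and Ids, 21691 to 35302 bp from the sty TSS. The nearest TSS to the strongest of them was that of Ids, a lysosomal sulfatase gene, 16480 bp away. That region had a pooled signal of 200.8 and ranked 1037 in replicate 2 and 1719 in replicate 4. Without the gap between Ids and sty, a choice made after seeing the data, the EGFR list held 6 of 14 (42.9%).

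The pathways in which kay is best known had IDR shares whose intervals all included the 8.73% of all members. Of the 17 members beside JNK pathway genes, 1 was in the IDR list (5.88%, 0.149 to 28.7%). It lay between yata and kay, ranked 3413 with a signal of 101.7, and ranked 2938 in replicate 2 and 2696 in replicate 4. The region held 2 AP-1 sites outside its summit window. It was 1 of 10 members beside kay. Jra, which encodes the Jun partner, and puc, which encodes the phosphatase that switches JNK off, had no member next to them. Beside dorsal closure genes 4 of 35 members (11.4%, 3.20 to 26.7%) were in the list, 2 each beside ed and shg, which encode the cell adhesion proteins Echinoid and E-cadherin. Beside wound response genes 2 of 7 (28.6%, 3.67 to 71.0%) were, next to Ddc and ple, the enzymes of the dopamine pathway that hardens cuticle, at ranks 2737 and 2148.

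Segmentation and Hox genes set the body segments and their identity, and the intervals of their IDR shares also included 8.73%. The segmentation list held 16 genes and left out hry, the pair-rule gene hairy. Between hry and SrpRbeta 5 of 28 members were in the IDR list, and they do not enter the share given here. Of 81 members beside 14 of the listed segmentation genes, 5 (6.17%, 2.03 to 13.8%) were in the list, with a median rank of 18245. The strongest was that between slp1 and slp2, which encode paired forkhead factors. It had a signal of 456.9, 4329 bp from the slp2 TSS, and ranked 150 in replicate 2 and 189 in replicate 4. Beside wg, the Wnt ligand gene Wingless, 2 of 11 were in the list, at signals of 138.4 and 102.5. Of 39 members beside Hox genes, 2 (5.13%, 0.627 to 17.3%) were in the list, 1 beside abd-A at rank 3011 and 1 between Dfd and Scr at rank 3579.

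The lists of secreted signals were small. Of 14 members beside genes of Dpp, the fly BMP pathway, 1 was in the list, beside the antagonist sog at rank 2313. Of 13 beside JAK/STAT genes 2 were. The one next to upd2, a cytokine-like ligand, had a signal of 265.7 and ranked 1051 in replicate 2 and 313 in replicate 4. The one between upd3 and upd1, which are related ligands, ranked 2589.

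**Figure D4:**
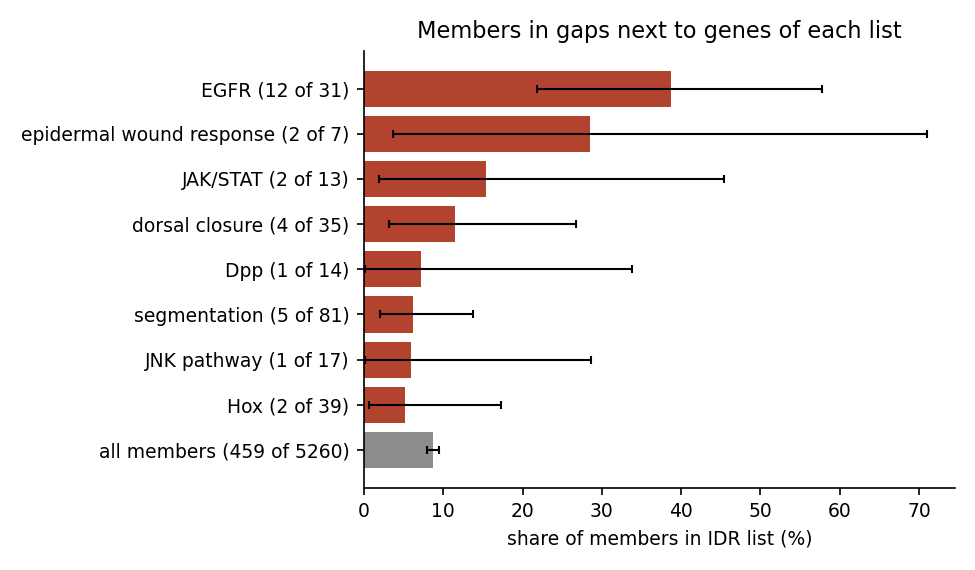
Share of members in the IDR list, in percent, for members in gaps next to the genes of each of 8 lists (red) and for all members (grey), with exact 95% intervals as error bars and counts beside the names. The EGFR bar is at 38.7% and all members at 8.73%; the intervals of several lists span most of the axis because they hold few members.

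The plot of shares by gene list has the EGFR bar as its longest, and the next bars, of wound response and JAK/STAT genes, rest on 7 and 13 members. The intervals treat members as separate, which members of 1 gap are not.

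One of the 19 motifs searched, 5.26% of them, differed between IDR members and the other members. The CTCF motif AGGNGGCGC, shown in capitals at the start, was found in the summit windows of 9 of 459 IDR members (1.96%, 0.90 to 3.69%), against 18 of 4801 other members (0.375%, 0.222 to 0.592%). The odds ratio was 5.31 (2.37 to 11.9), with an adjusted p of 0.00579 by Fisher's exact test over the 19 motifs. In all 30000 candidate windows the share was 0.353%, and in windows of the same length 500 bp to the side of the IDR summits 0.327%. In distal introns it was 0.440% of IDR regions and 0.263% of the others. In the candidates of replicate 2 alone the odds ratio was 4.09 and did not pass (adjusted p = 0.0866, Fisher's exact test), and in those of replicate 4 alone it was 8.56. A match is a run of letters and not a measured CTCF site.

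The 9 regions with the CTCF motif lay in 9 gaps. The strongest, between CG14762 and Optix, a homeobox gene of the eye and head, had a signal of 273.1 and ranked 509 in replicate 2 and 609 in replicate 4. The next, near upd2, is the one given above with the JAK/STAT genes. The region between soti and cv-c held 2 copies and ranked 1249 and 1627. The region between Cyp18a1, which inactivates the moulting hormone ecdysone, and CCKLR-17D1 had a signal of 160.9. Its nearest TSS was that of Cyp308a1, 5761 bp away. That between Imp, an RNA-binding protein gene, and sbr had 155.9, and its nearest TSS was that of sbr, 4872 bp away. The one between the GATA factor genes srp and GATAe had 146.5. The last 3, between CG15615 and CG5550, ImpL2 and Sqor, and CadN and CadN2, had 132.3, 129.3 and 100.8. Each of the 9 summits was 8 to 39 bp from the centre of its motif. These regions were named because they carry the motif, after their values were seen.

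Other motifs did not pass. The Su(Hw) core TGCATAC lay in 16 IDR members (3.49%) and in 1.69% of the other members, with 1.56% of all windows, and its odds ratio of 2.10 (1.22 to 3.63) missed the threshold (adjusted p = 0.0995, Fisher's exact test). The Grainyhead site AACCGGTT, read by a factor of the epidermal barrier and of wound repair, lay in 2 IDR members and 2 other members, and in 0.163% of all windows (adjusted p = 0.256, Fisher's exact test). The AP-1 variant TGAATCA, with the middle base changed, lay in 2.40% of IDR members and 1.79% of others, with 2.38% of all windows. The CRE site TGACGTCA and the DREF site TATCGATA were in none of the 459 IDR members, and in 9 and 12 of the others. A count of 0 of 459 allows a share of up to 0.800%.

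The motifs of other developmental factors did not pass either, with adjusted p between 0.617 and 1 (Fisher's exact test). The homeodomain core TAATTA lay in 8.06% of IDR members and 8.69% of the others, with 7.45% of all windows. The Runt motif AACCNCA lay in 5.01% of IDR members and 4.04% of the others (3.92% of all windows), and the STAT motif TTCNNNGAA in 2.40% of IDR members and 3.25% of the others (2.96%). The E-box CAGCTG lay in 2.61% of IDR members and 2.94% of the others (4.39%), and the forkhead motif TGTTTAC in 1.96% of IDR members and 2.37% of the others (3.16%). The TCF motif ATCAAAG, read at the end of Wnt signalling, lay in 1.31% of IDR members and 2.00% of the others (1.80%), and the TEAD motif CATTCCA, read at the end of Hippo signalling, in 1.74% of IDR members and 1.81% of the others (1.57%).

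Motifs of factors that open chromatin or activate broadly were likewise rare. The GATA motif AGATAAG lay in 1.74% of IDR members and 1.31% of the others, with 1.57% of all windows, and GAGAGAG, read by GAGA factor, in 1.53% of IDR members and 1.02% of the others (1.81%). The ETS motif CCGGAAG, the class read by aop and pnt, lay in 0.654% of IDR members and 0.271% of the others (0.387%). The Zelda motif CAGGTAG lay in 0.654% of IDR members and 0.375% of the others (0.453%). The C/EBP motif TTGCGCAA lay in 1 IDR member and 4 others (0.180% of all windows), and that of M1BP, GGTCACACT, in 1 IDR member and 4 others (0.513%).

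**Figure D5:**
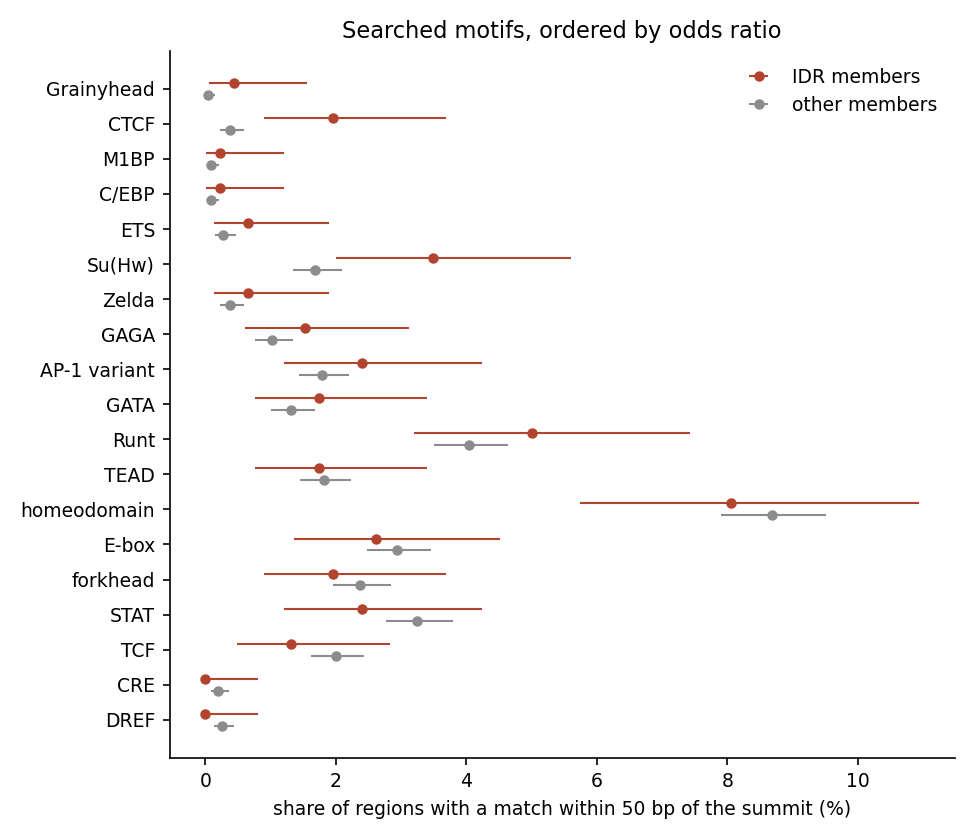
Share of IDR members (red, upper point) and of other members (grey, lower point) with a match to each of 19 motifs within 50 bp of the summit, in percent, with exact 95% intervals, ordered by odds ratio from top to bottom. The CTCF points are 1.96% and 0.375% with intervals that do not overlap, and the CRE and DREF points of the IDR members are at 0.

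The plot of motif shares shows how rare each match was, with TAATTA the most frequent at under 9% of either set. The distance to a TSS had a median of 3442 bp in IDR members and 4207 bp in the others. The summit windows of IDR members had a median GC content of 34.7%, against 38.6% in other members, and in distal introns the medians were 33.7% in IDR regions and 38.6% in the others. The part of GC content in the motif shares was not tested. Of the IDR members 3 (0.654%) had their summit in an annotated transposable element, against 85 (1.77%) of the others. The IDR share lay between 7.72% on 3R and 9.58% on 2R for the 5 large arms, and it was 5 of 83 on chromosome 4.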

How the data were processed

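The deposited files are peak lists in the dm6 build. Per the descriptions deposited with them, each list was derived from aligned reads of a single replicate, or of the pool, set against 1 control. The signal values were made by the authors' peak caller, and neither the caller nor the aligner nor any version is given in the sources used here. Lists in the dm3 build were not used. The depth per sample is unknown, so no precision follows from it. A pooled candidate counted as IDR when its position and summit matched an entry of the IDR list. Genes were the 13945 protein-coding and 4219 noncoding genes (transposable elements apart) of Ensembl release 115 on 6 arms, and sequences came from the RefSeq copy of Release 6. One list gene, stit, is annotated as Cad96Ca and was matched through the RefSeq gene table. Motifs had to lie wholly within 50 bp of the summit on either strand. A two-sided Fisher's exact test compared shares, and odds ratios carry Woolf 95% intervals (0.5 added to each cell where one was 0). Adjusted p-values are by Benjamini and Hochberg within each family of tests. Regions named by rule were the 15 strongest members, the 3 strongest over 10000 bp from a TSS, the 3 strongest near a noncoding start and the 5 strongest IDR members beside a list gene. Others are said to have been named after their values were seen. Members, lists and motifs were chosen with earlier results of these data known. Alternatives covered matching by summit within 100 bp, the stronger 50% of the IDR list, 1 region per cluster, wider windows of 1000 bp and 100 bp, TGANTCA as the AP-1 site, summits outside all annotated genes, chromosome 4 and the 1 Mb at centromeric ends left out, and each replicate's own list. The code was tested on simulated data. Tools were scipy 1.17.1 and numpy 2.4.6 for the tests, pandas 2.3.3 for the tables and matplotlib 3.10.9 for the plots, under Python 3.11.15.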

Additional observations from a re-analysis of the deposited data

How the results depend on the processing

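The comparisons with promoters (odds ratios of 0.266 to 0.385) and of noncoding RNA starts (1.66 to 2.08) kept their direction and their side of the threshold under every alternative run. Against distal introns the odds ratio was 0.816 to 0.896 with 1 replicate left out and passed without replicate 2. Without against with an AP-1 site it was 0.545 outside all annotated genes and did not pass. For members near against far from a TSS it was 1.27 over 1000 bp from a TSS, and 1.21 to 1.66 with 1 replicate left out. Members in gaps where both genes start against those where both end turned direction, without passing, to 1.25 with the stronger 50% of the IDR list, 1.06 outside all annotated genes and 1.11 to 1.29 with 1 replicate left out. The number of motifs that differed was 0 to 1 with 1 replicate left out, and 0 without replicate 4, when the CTCF odds ratio was 4.09 over a range of 4.09 to 8.56. The causes were not tested. The share of members beside EGFR genes ranged from 16.1 to 46.2%. No paired analysis was possible because both replicates belong to a single group. Depth is unknown, and the 2 replicates give no estimate of the spread between embryo collections.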
